A study of Mus musculus with 3 samples.

Results

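The genes described here are 10 genes of the actin cytoskeleton, chosen by name because Actb, Acta2 and Pdlim7 were high in liver of treated TMX-null mice: Actb, Actg1, Acta2, Pdlim7, Tagln, Tagln2, Tpm1, Tpm4, Vim and Anxa2. Rows of the deposited table were taken when their annotated symbol, or its current name, was one of these. Of the 10 genes, 9 had a row, Actb had 2 probes and the other genes 1 each, and all 10 rows held a value on every array, out of 10179 named genes measured on all 3 arrays. Actg1 had no row by symbol or synonym and is not analysed here. Since values on the treated TMX-null array chose these genes, their height there is a description and supports nothing.

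The study compared livers of female C57BL/6 mice, either wild-type or TMX-/-, lacking the thioredoxin-related transmembrane protein whose gene is now named Tmx1. The treatment was an intraperitoneal dose of 3 ng bacterial lipopolysaccharide (LPS) and 10 mg D-galactosamine (GalN, which sensitises hepatocytes to LPS), with liver taken after 24 h. On each of 3 two-colour arrays the Cy5 channel held untreated wild-type liver, and the Cy3 channel held treated wild-type, untreated TMX-null or treated TMX-null liver. The sources used here do not give the number of animals per channel, their age, the deleted part of the gene or whether the reference was 1 preparation.

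Actin exists as monomers and filaments, and the filaments carry tropomyosins, transgelins and LIM domain proteins that stabilise, bundle or anchor them. When monomers are used up by filament growth, the cofactors of the MRTF family enter the nucleus and join serum response factor (SRF), which binds CArG boxes and drives many genes of actin and its partners. A second group of SRF targets, the immediate early genes, depends on ternary complex factors (TCF). In liver, smooth muscle actin, transgelin and vimentin are best known from activated stellate cells and vessel walls, while cytoplasmic actin and annexin A2 are made by most cell types and strongly by leukocytes.

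Promoter windows were taken from RefSeq (GRCm38.p6) for 8 of the 10 genes, each reaching from 250 bases before to 50 after the start used there. Actb and Tagln were not matched. Searched on both strands were the CArG box, a CArG-like form with 1 G or C among its inner bases, and the letters TGANTCA (AP-1 type), CATTCC (TEAD type), GGGCGG (GC box) and TATANA. The CArG box and the CArG-like form exclude each other, and no other matches overlapped in the stretches shown. Of 32851 mouse windows, 1.63% held a CArG box and 8.5% a CArG-like form. Among the 8 windows, Actg1 held the CArG box, Acta2 held 2 CArG-like matches, and the other 6 held neither. TGANTCA was in 1 of 8 (Anxa2, against 7.81% of all windows), CATTCC in 3 (Acta2, Tagln2 and Tpm1, against 14.7%), TATANA in 4 (24.7%) and GGGCGG in 6 (35.7%). A match is a run of letters, not a tested binding site. These 3 stretches are shown because they hold the CArG-type and AP-1 type matches. They end at the base before the start, and capitals mark matches to all motifs but GGGCGG. The Acta2 start used in the table lies inside the RefSeq record of that gene, not at its outer end.
Acta2, chr19:34255374-34255503, minus strand: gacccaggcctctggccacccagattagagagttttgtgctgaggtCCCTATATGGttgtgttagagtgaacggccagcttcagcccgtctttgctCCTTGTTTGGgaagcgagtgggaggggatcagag
Actg1, chr11:120348496-120348625, minus strand: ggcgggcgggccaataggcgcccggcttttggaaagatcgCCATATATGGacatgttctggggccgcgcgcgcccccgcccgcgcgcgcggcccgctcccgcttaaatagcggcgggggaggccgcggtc
Anxa2, chr9:69453553-69453682, plus strand: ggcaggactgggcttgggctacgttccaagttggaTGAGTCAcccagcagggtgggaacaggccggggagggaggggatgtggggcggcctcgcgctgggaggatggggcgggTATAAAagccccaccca

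All values are log2 ratios to untreated wild-type liver as the authors deposited them, centred on the median gene of each array, or differences of such ratios between arrays. A difference between arrays is free of the reference only if the reference was the same preparation. Sample over reference is the likely direction, since Tmx1 had the lowest value of the untreated TMX-null array, -2.96. The labels do not state the direction, and with the opposite numerator every "higher" becomes "lower". The base of the logarithm is not stated either, and natural logarithms would make every value larger by the same factor. The number of arrays limits the precision. The only error at hand is the SD of a single probe, 0.42 on the treated wild-type and untreated TMX-null arrays and 0.76 on the treated TMX-null array. For differences it was 0.67 (treated against untreated TMX-null) and 0.59 (TMX-null against wild-type, both treated). The treated TMX-null array also had the widest spread over genes, an SD of 1.04 against 0.48 and 0.40.

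Acta2 encodes smooth muscle actin, the usual mark of activated stellate cells. Its log2 ratio was 0.96 in treated wild-type, 0.02 in untreated TMX-null and 3.31 in treated TMX-null liver. It was thus high on the treated TMX-null array (9.93-fold) and just short of 2-fold on the treated wild-type array (1.95-fold), where it was the highest of the 9 genes. Within TMX-null liver the treated sample lay 3.29 log2 units above the untreated one, and 2.35 units above treated wild-type liver.

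Actb encodes cytoplasmic beta-actin, whose message is widely used as a loading reference. The mean of its probes stood at 0.23 in treated wild-type, -4.2e-04 in untreated TMX-null and 2.02 in treated TMX-null liver. The first probe read 0.94, 0.23 and 2.09 on these arrays and the second -0.48, -0.23 and 1.94. The probes thus differed by 0.14 in treated TMX-null liver but by 1.42, with opposite signs, in treated wild-type liver. Of 81 genes with 2 probes, 1 had a larger gap there. So treated TMX-null liver lay 1.15 units above treated wild-type liver by the first probe and 2.43 by the second, while its distance to untreated TMX-null liver was 1.86 and 2.17. The sources used here do not give the place of either probe, and actin genes are so alike in sequence that a probe may detect more than 1 of them.

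**Figure D1:**
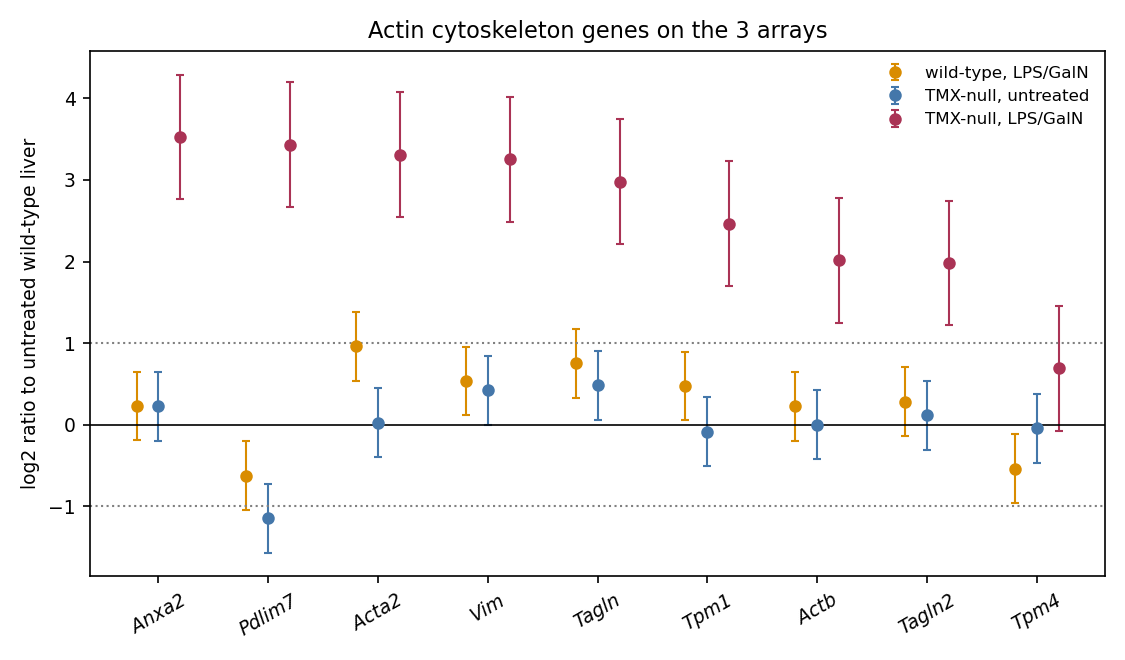
Log2 ratio to untreated wild-type liver of the 9 measured genes on each array, ordered by the treated TMX-null value. Points are gene values, bars the SD of a single probe (0.42, 0.42 and 0.76), and dotted lines mark 2-fold. In treated TMX-null liver 8 genes sit above the upper line and Tpm4 at 0.69, while in treated wild-type liver none passes it.

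Tagln encodes transgelin, an actin-bundling protein of smooth muscle and activated stellate cells, and Tagln2 its relative, found in many cell types including blood cells. Tagln stood at 0.75 in treated wild-type, 0.49 in untreated TMX-null and 2.98 in treated TMX-null liver. Tagln2 stood at 0.28, 0.12 and 1.98. Both were high on the treated TMX-null array (7.88-fold and 3.95-fold) and within 2-fold of the reference on the others. Tagln had the highest value of the 9 genes in untreated TMX-null liver, only slightly past the SD of a probe.

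Tropomyosins lie along actin filaments and set which proteins can bind them. Tpm1 stood at 0.47 in treated wild-type, -0.08 in untreated TMX-null and 2.46 in treated TMX-null liver. Tpm4 stood at -0.54, -0.04 and 0.69. Tpm1 was thus 5.51-fold above the reference in treated TMX-null liver, whereas Tpm4, at 1.61-fold and within the SD of a probe there, was the sole measured member short of 2-fold. The remaining tropomyosin genes lay between them in that liver, Tpm3 at 1.63 and Tpm2 at 1.18. Against treated wild-type liver Tpm4 did pass 2-fold, at 1.23, since it was below 0 on the wild-type array.

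Pdlim7 encodes a PDZ and LIM domain protein that links actin filaments to signalling proteins. It stood at -0.62 in treated wild-type, -1.14 in untreated TMX-null and 3.43 in treated TMX-null liver. It was the sole member at least 2-fold below the reference in untreated TMX-null liver (rank 10137 of 10179 from the highest) and among the highest genes in the treated one (rank 27). The difference between these livers, 4.58, ranked 6 and so combined a low untreated and a high treated value. The difference to treated wild-type liver, 4.06, ranked 6 as well.

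Vim encodes vimentin, the intermediate filament protein of mesenchymal cells and leukocytes, and Anxa2 encodes annexin A2, which ties membranes to the actin cortex. Vim stood at 0.54 in treated wild-type, 0.42 in untreated TMX-null and 3.25 in treated TMX-null liver. Anxa2 stood at 0.23, 0.23 and 3.53, the highest of the 9 genes on the treated TMX-null array (11.5-fold, rank 21). Its values on the other arrays were nearly equal and within the SD of a probe of 0. Anxa2 lay 3.30 units above both untreated TMX-null and treated wild-type liver.

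Set against untreated wild-type liver, 0 of the 9 genes were 2-fold higher and 0 lower in treated wild-type liver, where 2.8% of all genes were higher and 1.75% lower. Their median there was 0.28, with 7 genes above 0, beside a median of 0 and an SD of 0.48 for all genes. In untreated TMX-null liver 0 were higher (1.78% of all genes) and 1 was lower (0.835%), with a median of 0.02. In treated TMX-null liver, where the genes were chosen, 8 of 9 were higher (13.6% of all genes), with a median of 2.98. The 1 lower gene, in untreated TMX-null liver, was Pdlim7.

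Treated against untreated TMX-null liver put 8 of 9 genes at least 2-fold higher, where 11.4% of all genes were, with a median of 2.55. The comparison of the treated livers, TMX-null against wild-type, put 9 of 9 higher, where 9.64% of all genes were, with a median of 2.23. With all arrays scaled to a common spread this last count was 4 of 9, where 4.38% of all genes were higher, and the median 0.95, so it depends on the wider spread of the treated TMX-null array. Each difference contains the array that chose the genes, and nothing is read from their counts. Without Actb, Acta2 and Pdlim7, the counts were 5 of 6 and 6 of 6 and the medians 2.52 and 2.11.

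The difference of the responses, treated minus untreated in TMX-null liver less the same in wild-type liver, was above 2-fold for 9 of 9 genes, where 9.82% of all genes were. Pdlim7 was the highest at 5.20, rank 3 of 10179, and Tpm4 the lowest at 1.27. In this quantity the reference enters once and does not cancel. With a common spread 4 of the 9 passed 2-fold, where 10.5% of all genes did.

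**Figure D2:**
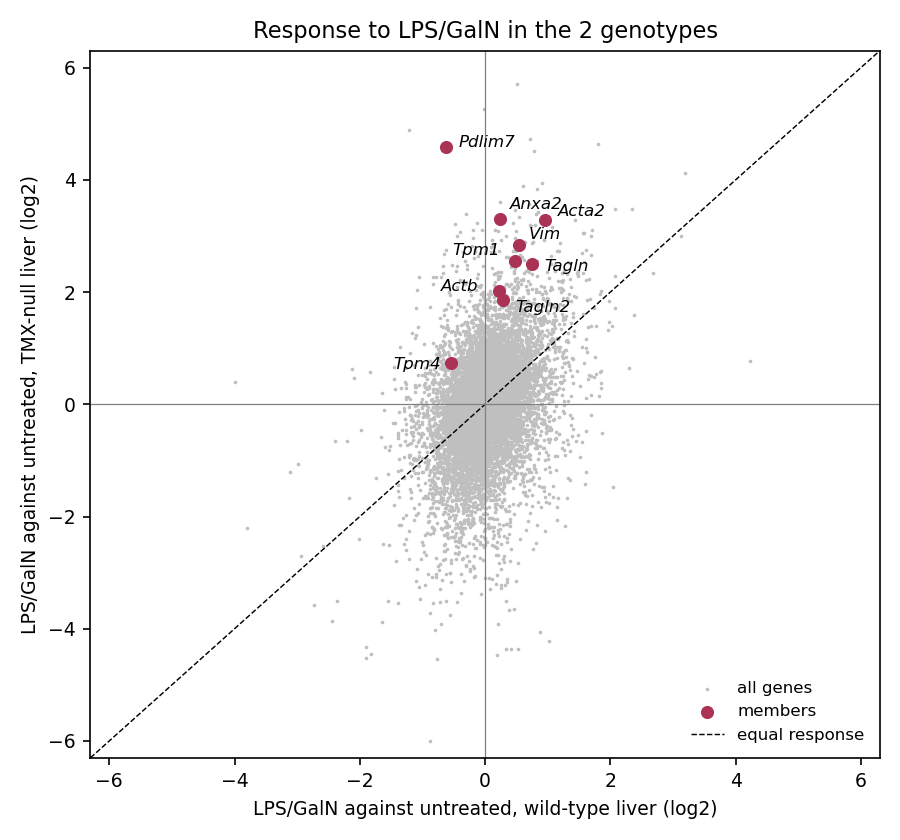
Log2 difference between treated and untreated liver in wild-type mice (horizontal) and TMX-null mice (vertical) for 10179 genes (grey) and the 9 measured members (red), with the line of equal response dashed. All 9 members lie above the line, Pdlim7 at -0.62 and 4.58 the farthest and Tpm4 at -0.54 and 0.73 the nearest.

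In the order of the members from treated against untreated TMX-null liver, neighbours were set against the SD expected between single probes, 0.95. Pdlim7 was followed by Anxa2 (3.30), Acta2, Vim (2.83), Tpm1 (2.55), Tagln (2.49), Actb (2.02), Tagln2 (1.86) and Tpm4 (0.73). The steps from Pdlim7 to Anxa2 (1.28) and from Tagln2 to Tpm4 (1.13) exceeded that SD, and the other 6 did not. In treated wild-type liver the step from Actb to Tpm4 (0.76, against 0.60) was the sole one beyond it, and in untreated TMX-null liver that from Tpm1 to Pdlim7 (1.06, against 0.60). In treated wild-type liver Actb is the mean of probes at 0.94 and -0.48, so its place in the order there is not settled.

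Actb was also set beside other genes used as references. Of 14 such genes, 11 were measured, and their median was -0.09, -0.05 and -0.12 on the treated wild-type, untreated TMX-null and treated TMX-null arrays. Gapdh, the glycolytic enzyme gene most often used in its place, stood at -0.02, -0.02 and -0.13. Actb relative to Gapdh was thus 1.19-fold, 1.01-fold and 4.44-fold higher on these arrays. The first 2 ratios use the mean of Actb probes with opposite signs, 0.94 and -0.48, then 0.23 and -0.23. Neither probe alone shows a ratio so near 1 on those arrays. In treated against untreated TMX-null liver, 3 of the 11 were 2-fold higher, led by the lysosomal enzyme gene Gusb (1.41) and the transferrin receptor gene Tfrc (1.32), and the lowest was Sdha (-0.91), a subunit of succinate dehydrogenase.

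**Figure D3:**
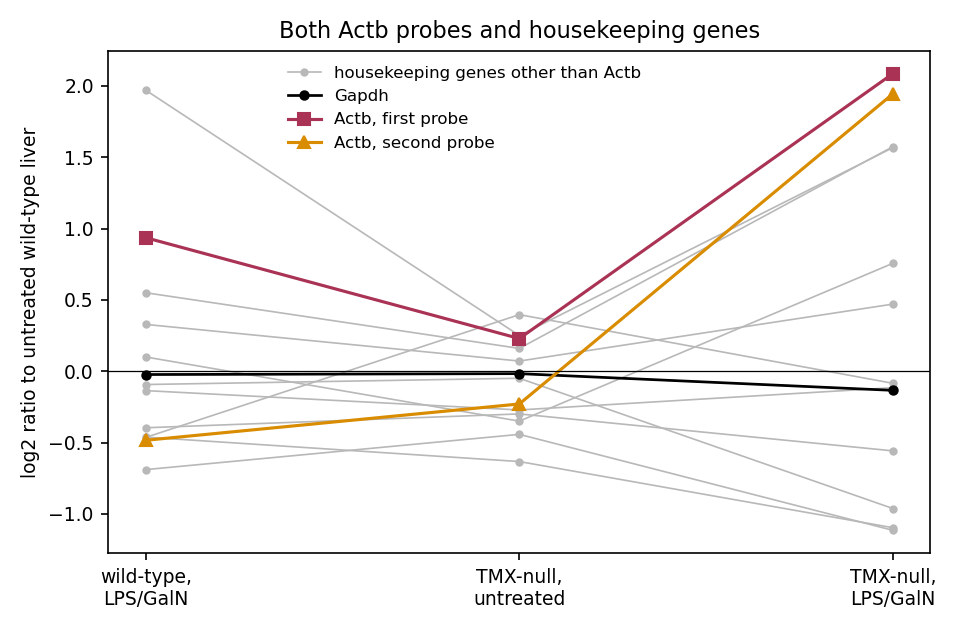
Log2 ratio to untreated wild-type liver on the 3 arrays for both Actb probes, Gapdh and the other measured housekeeping genes, with lines joining the values of the same probe or gene. The Actb probes stand at 2.09 and 1.94 in treated TMX-null liver and apart at 0.94 and -0.48 in treated wild-type liver, while Gapdh stays between -0.13 and -0.02.

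Other genes of the actin system, and also tubulins, intermediate filaments and annexins with S100 partners, were counted in 8 lists. All of these lists are apart from the members and were chosen with earlier results known. They held 135 genes, of which 96 were measured on all arrays. In treated against untreated TMX-null liver 45 of these (46.9%) were 2-fold higher and 2 lower, against 11.4% and 12.1% of all genes. Against the reference, treated wild-type liver had 5 higher and 1 lower, and untreated TMX-null liver had 0 of each. The values that follow are differences between treated and untreated TMX-null liver unless another is named.

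SRF, its cofactors and MRTF-type targets had 10 of 17 measured genes 2-fold higher and 0 lower, with a median of 1.41. Another 2 genes had no row and 6 were blank on at least 1 array. Of these 6, Tes (3.10), Actn1 (0.92), Myocd (0.28) and Lmod1 (0.12) had a deposited value on the treated TMX-null array. Mrtfb had one on the treated wild-type array alone (2.07), and Cnn1 on the untreated TMX-null array alone (1.83). The matricellular genes Ccn2 (3.34) and Ccn1 (2.37) led, and the integrin subunit gene Itga5 (-0.62) was lowest. Srf itself stood at 0.73 and the cofactor gene Mrtfa at 1.53. In treated wild-type liver the same list had 0 higher and 1 lower, with a median of -0.02. The TCF-type targets had 2 of 7 measured genes higher, with a median of 0.41. These were Ier3 (3.94), an early response gene, and the transcription factor gene Egr1 (2.34), while Fosb (-0.24) was lowest. Of the 11 genes in this list, 1 had no row and 3 were blank on at least 1 array. Fos and Egr2 had a deposited value on the treated TMX-null array alone (2.62 and 1.90), and Egr3 on none. Egr1 was the one gene of this list that was 2-fold higher in treated wild-type liver, at 2.68.

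Other actins and tropomyosins had 4 of 6 measured genes higher, with a median of 1.11. Tpm3 (1.72) led, followed by Actl6a (1.23), an actin-related protein of chromatin remodelling complexes, and Actr2 (0.88), a subunit of the filament-branching Arp2/3 complex, was lowest. Regulators of actin monomers and filaments had 10 of 30 higher and 1 lower, with a median of 0.78. The leukocyte coronin gene Coro1a (2.93) and the capping protein gene Capg (2.73) led, and Cap1 (-1.22), which recycles monomers, was lowest.

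PDLIM and LIM domain genes had 4 of 14 higher and 1 lower, where 11.4% and 12.1% of all genes were. By its median, -0.18, the list did not lie high. Crip1 (1.57) and Pdlim4 (1.52) led, and Pdlim1 (-1.14), another PDLIM gene, was lowest. Annexins and their S100 partners had 8 of 11 higher and 0 lower, with a median of 2.09. The calcium-binding genes S100a4 (4.73) and S100a11 (3.56) led, and Anxa11 (-0.13) was lowest. Tubulins, the subunits of microtubules, had 6 of 10 higher and 0 lower, with a median of 1.57, from Tubb6 (3.42) and Tubb2a (2.67) to the neuronal Tubb3 (-0.78). Of 12 intermediate filament genes 3 were measured, Lmna at 1.45, Krt19 at 0.70 and Lmnb1 at -0.73.

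**Figure D4:**
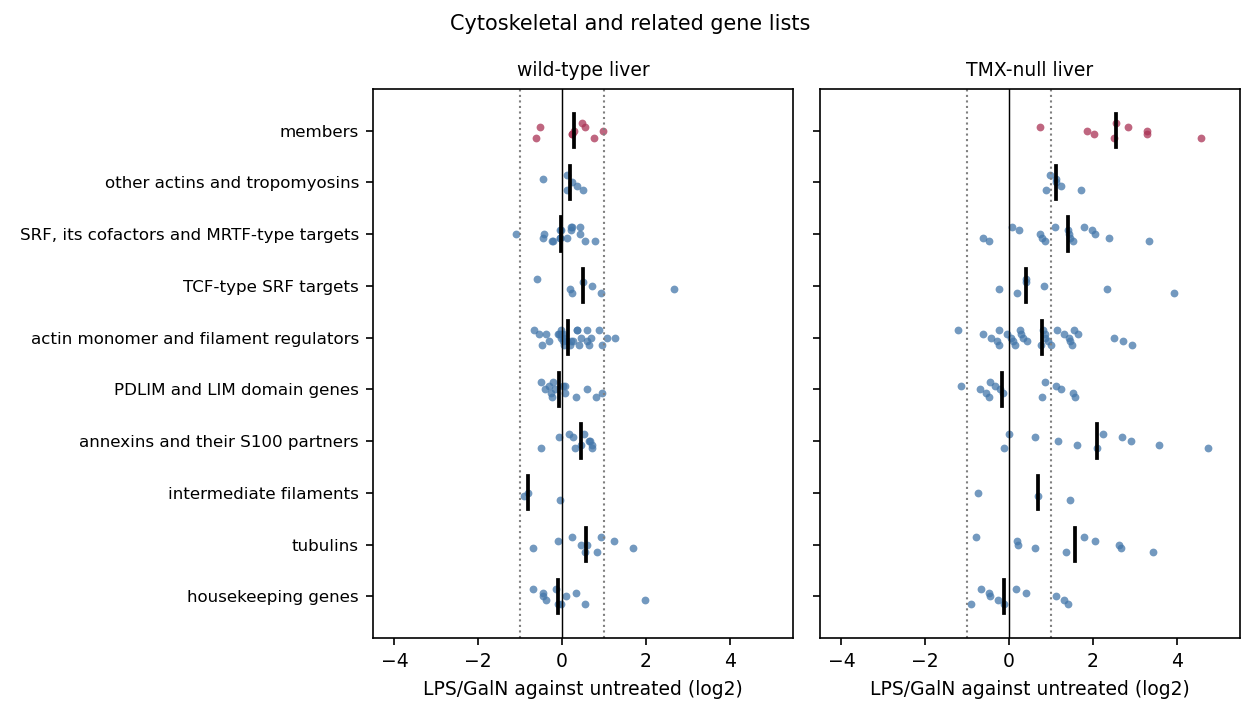
Log2 difference between treated and untreated liver in wild-type (left) and TMX-null mice (right) for each measured gene of the members (red) and of the other lists (blue), with list medians as black bars and 2-fold as dotted lines. In TMX-null liver the members' median is 2.55, that of the annexin list 2.09 and that of the LIM domain list -0.18, while in wild-type liver the members' median is 0.28.

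In whole liver RNA, a change in the number of cells of a type and a change in RNA per cell cannot be told apart. Marker lists of other cell types were therefore read on the same difference, with no signal levels at hand to say which markers were near 0. Hepatocyte markers were measured for 11 of 15 genes and lay low, with 0 higher, 7 lower and a median of -1.55, from Apob (0.39) to Cyp2e1 (-3.51). Stellate cell and myofibroblast markers had 3 of 11 higher and 0 lower, with a median of 0.63, from Rgs5 (1.78) to Colec11 (-0.53). Another 7 of their 18 genes were blank on at least 1 array. Of these, Des had a value on the treated TMX-null array alone (deposited value 1.75), and the inhibitor gene Timp1 had 4.01 there and 1.75 on the treated wild-type array. Gfap (1.83), Lrat (1.52) and Col1a1 (-0.55) had a deposited value on the treated wild-type array alone. Hand2 had 0.41 there and 0.90 on the untreated TMX-null array, and Lox had no value on any array. Among the marker lists, such partial values are given for this one, for smooth muscle, and for monocytes and neutrophils alone. Smooth muscle markers had 0 of 4 measured genes 2-fold apart, with a median of -0.11, from Mylk (0.26) to Synpo2 (-0.96), and 5 of 9 were blank on an array. Of these 5, Myh11 had deposited values of 1.01 on the treated wild-type and 1.64 on the treated TMX-null array. Actg2 had 0.57 and 1.07 on these arrays, and Lmod1 -0.31 and 0.12. Myocd had a value on the treated TMX-null array alone (0.28), and Cnn1 on the untreated TMX-null array alone (1.83).

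Leukocyte markers had 5 of 7 higher and 1 lower, with a median of 1.53, from Coro1a (2.93), which is also counted among the actin regulators, to Nkg7 (-1.42). Monocyte and neutrophil markers were measured for 4 of 11 genes, with 3 higher and 1 lower and a median of 3.39, from S100a9 (4.63) to Ly6g (-2.30). Of the others, 3 had no row and 4 were blank on at least 1 array. Ccr2 had deposited values of 1.99 on the treated wild-type and 4.11 on the treated TMX-null array. Itgam had 2.48 on the treated TMX-null array alone, Cxcr2 0.72 on the treated wild-type array alone, and Mpo no value. Macrophage markers had 4 of 12 higher and 0 lower, with a median of 0.44, from Marco (3.00) to Clec4f (-0.47). Set against untreated wild-type liver, 9 of the 12 macrophage markers were 2-fold higher in treated wild-type liver, with a median of 1.19. On that array 2.8% of all genes were, and the members' count of 0 of 9 lies near that share. Against the same reference 9 of 12 were higher in treated TMX-null liver, with a median of 1.37, and 3 of 12 in untreated TMX-null liver, with a median of 0.79. The part of stellate cells, leukocytes or macrophages in the members' values was not tested.

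The remaining marker lists had medians between -0.53 and 0.93. Sinusoidal endothelium had 2 of 10 higher (median 0.29), from Lyve1 (1.82) to Stab2 (-0.66). Cholangiocyte markers had 2 of 6 higher and 1 lower (median 0.56), from Spp1 (1.88) to Cftr (-1.06). Mesothelial and portal fibroblast markers had 0 of 5 higher and 1 lower (median -0.53), from Krt19 (0.70) to Gpm6a (-1.39). Platelet markers (2 of 5 measured, Pf4 at 0.98 and Ppbp at 0.87) and skeletal muscle markers (2 of 8, Mylpf at 0.03 and Mb at -0.41) had 0 genes 2-fold apart.

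**Figure D5:**
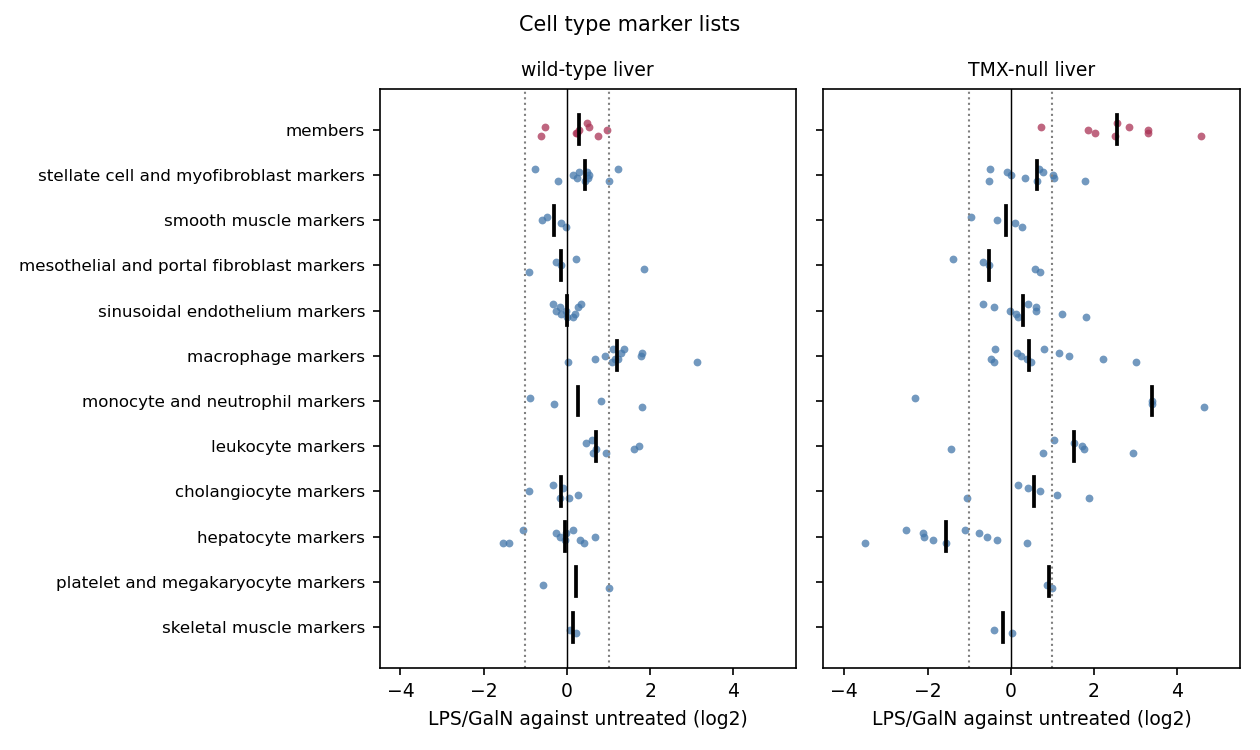
Log2 difference between treated and untreated liver in wild-type (left) and TMX-null mice (right) for each measured gene of the members (red) and of cell type marker lists (blue), with list medians as black bars and 2-fold as dotted lines. Macrophage markers have a median of 1.19 in wild-type and 0.44 in TMX-null liver, each against its own untreated liver, and hepatocyte markers one of -1.55 in TMX-null liver.

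The genes with the pattern most like that of Actb, by Euclidean distance over the log2 ratios of the 3 arrays, were Flna (0.09), which encodes the actin cross-linker filamin A, Tagln2 (0.13) and Nudt18 (0.16). For Acta2 they were Bcl2a1c (0.19), Coro1a (0.29) and Tubb6 (0.43). Pdlim7 had no gene as near, with Csf3r at 0.93, the sulfotransferase gene Sult1e1 at 0.93 and the chromatin protein gene Hmga1 at 1.02. With 3 arrays that share a reference channel, such likeness describes these arrays and no more.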

How the data were processed

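Liver RNA was measured on 3 arrays of 2 channels, 1 array per group, so nothing could be tested. Log ratios were deposited by the authors and are taken as log2 values. The sources used here do not give the base, the numerator, the normalization, the background correction or why cells are blank. Per the labels' protocols, RNA was amplified as amino allyl RNA and dye-coupled by a Toray protocol. The deposited log2 values had a median within 1.14e-04 of 0 on each array.

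Symbols came from GEO's platform annotation (16631 of 23473 rows) and were updated through RefSeq synonyms (GRCm38.p6), which renamed 3947 rows. Probes of a gene were averaged, and each array was centred on its median over the 10179 named genes measured on all 3 arrays, which moved values by 0.03 to 0.07. Genes at least 2-fold apart were counted. The error is the SD of a single probe over 81 genes with 2 probes. It includes differences between transcripts and leaves out those between mice.

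The members, gene lists and rules were chosen with earlier results of these data known. All members are named. Of each pathway list, the text names the 2 highest genes and the lowest by treated against untreated TMX-null liver, and of each marker list the highest and the lowest. Srf, Mrtfa, Gapdh, Tpm2 and Tpm3 were named besides that rule, after their values were seen. So were Des, Timp1, Gfap, Lrat, Col1a1, Hand2 and Lox, the stellate cell markers blank on an array. The same holds for the genes blank on an array in the SRF and MRTF-type, TCF-type, smooth muscle, and monocyte and neutrophil lists. For Actb, Acta2 and Pdlim7, the 3 nearest genes by Euclidean distance over the 3 arrays are named. Alternatives covered centring, array spread, genes used, probes, logarithm base, fold threshold and members. A further gene list is not reported here. The computation was tested on simulated data. Python 3.11.15, pandas 2.3.3, numpy 2.4.6 and matplotlib 3.10.9 were used.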

Additional observations from a re-analysis of the deposited data

Results flagged for a closer look

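Pdlim7 and Tpm4 had responses to LPS/GalN of opposite sign in the genotypes. Pdlim7 stood at -0.62 in treated wild-type liver against its reference and at 4.58 in treated against untreated TMX-null liver, a difference of 5.20 log2 units. Tpm4 stood at -0.54 and 0.73, a difference of 1.27. With 1 array per group this difference was not tested, and both wild-type values were within 1.5 times the SD of a single probe (0.42).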

How the results depend on the processing

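No paired analysis was possible because each group had 1 array and no replicate numbers. Of 92 recomputed counts and medians of the members, 79 stayed within 1.5 times the main count or 1 SD of a single probe. Several alternatives could hardly move them. Values as deposited or centred on all rows differed by only 0.03 to 0.07 on an array, and only Actb had more than 1 probe. With a common spread of the arrays the medians were 1.84 for treated TMX-null against untreated wild-type liver, 1.34 against untreated TMX-null and 0.95 against treated wild-type liver, where the count fell to 4. Read as natural logarithms they were 4.30, 3.67 and 3.21. In treated wild-type liver the count of 0 became 1 with centring on housekeeping genes (3.74% of all genes), 1 with a common spread (5.84%), 2 with natural logarithms (7.07%) and 2 at 1.5-fold (9.78%). Without Actb, Acta2 and Pdlim7 the count in treated TMX-null liver was 5 of the 6 remaining members against either untreated liver, in place of 8 of 9. The count of 0 in treated wild-type liver stayed at 0 when that liver was set against untreated TMX-null liver, an alternative chosen after seeing the data. No member past 2-fold changed sign under any alternative run. Of 325 values of single members, 55 moved by more than the SD of a probe. Without signal over background, dim probes cannot be told from bright ones.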
